A study of Homo sapiens with 12 samples.

Results

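The aryl hydrocarbon receptor (AhR) pathway was examined in RNA-seq data of SW1783, an established human astrocytoma cell line. The members were chosen by name as the receptor AHR, its partner ARNT, the repressor AHRR and the target genes CYP1A1, CYP1B1 and TIPARP, and all 6 were found among the 60675 gene IDs of the deposited table, of which 30808 had a count. The 12 libraries fall into 4 groups of 3. The vehicle was phosphate-buffered saline with 2% DMSO. The other groups received a hot water extract of Aconitum carmichaeli Debeaux (ACD) made up in the same solvent. Cells were exposed to it at 20 µg/mL (low dose), 100 µg/mL (medium dose) or 500 µg/mL (high dose). By the methods of the study, the extract solutions were added in a small volume to growth medium. The 2% is thus the DMSO of the added solution and not of the medium around the cells. All groups were harvested after 24 h, and no other agent, allele or time point enters the comparisons. Every library comes from the same cell line, and nothing in the labels says that the 3 libraries of a group came from separate cultures, so the p-values measure the spread between these samples, which may be technical.

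The AhR is a transcription factor that waits in the cytosol, bound to HSP90 chaperones and the co-chaperone PTGES3. A ligand such as a dioxin, a plant compound or a tryptophan metabolite sends it to the nucleus, where it pairs with ARNT and binds short DNA elements with the core GCGTG. CYP1A1 and CYP1B1, monooxygenases that oxidise polycyclic aromatic compounds, are its best known targets, and AHRR and TIPARP are targets that restrain the receptor in turn, AHRR by competing for ARNT and the response element and TIPARP by ADP-ribosylation. In glial tumours the pathway is best known for its response to kynurenine, a product of tryptophan breakdown. Only mRNA was measured here, and neither receptor protein nor its binding to DNA.

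At the high dose the receptor and the genes CYP1B1 and AHRR changed in opposite directions. The mRNA of AHR rose 1.64-fold over vehicle, CYP1B1 fell 2.35-fold and AHRR 1.98-fold, while ARNT and TIPARP did not pass the test. CYP1A1, with 4 to 18 counts per library, was also called lower at the high dose, a call that most alternative fits did not keep. AHRR and CYP1B1 were already called lower at the medium dose, though testing for a change beyond 1.5-fold gave adjusted p of 1 and 0.326 there (DESeq2), and their low dose values lay below vehicle with a fold change too small for the call. A gene is called here, as a differentially expressed gene (DEG), when DESeq2's two-sided Wald test over all genes gives an adjusted p under 0.05 and the fold change is over 1.5, which is 0.58 on the log2 scale.

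The genes lie on separate chromosomes of GRCh38, with positions from GENCODE release 44. AHR (ENSG00000106546) spans chr7:16916359-17346152 on the plus strand, AHRR (ENSG00000063438) chr5:321714-438291 on the plus strand and TIPARP (ENSG00000163659) chr3:156673235-156706770 on the plus strand. On the minus strand are ARNT (ENSG00000143437) at chr1:150809713-150876708, CYP1A1 (ENSG00000140465) at chr15:74719542-74725536 and CYP1B1 (ENSG00000138061) at chr2:38066973-38109902. RefSeq (GRCh38.p14) upstream windows of 250 bases, ending just before an annotated transcription start, were on hand for 5 of the 6 members, as 8 windows in all. No window of CYP1B1 was on hand. The windows of the receptor, of its repressor and of the targets CYP1A1 and TIPARP are shown, 5′ to 3′ on the strand of the gene, because they hold or lack the core letters of the AhR response element. Capitals mark each GCGTG, or CACGC where the core lies on the opposite strand.
AHRR: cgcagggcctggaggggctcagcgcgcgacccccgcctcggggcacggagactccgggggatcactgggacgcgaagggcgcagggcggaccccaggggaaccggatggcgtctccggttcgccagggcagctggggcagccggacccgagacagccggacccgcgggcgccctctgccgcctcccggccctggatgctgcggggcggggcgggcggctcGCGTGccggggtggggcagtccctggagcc
CYP1A1: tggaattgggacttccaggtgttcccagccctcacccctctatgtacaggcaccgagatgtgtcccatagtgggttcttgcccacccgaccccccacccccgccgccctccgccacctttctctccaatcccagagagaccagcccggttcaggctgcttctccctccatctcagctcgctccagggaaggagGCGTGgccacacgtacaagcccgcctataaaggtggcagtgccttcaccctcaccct
TIPARP: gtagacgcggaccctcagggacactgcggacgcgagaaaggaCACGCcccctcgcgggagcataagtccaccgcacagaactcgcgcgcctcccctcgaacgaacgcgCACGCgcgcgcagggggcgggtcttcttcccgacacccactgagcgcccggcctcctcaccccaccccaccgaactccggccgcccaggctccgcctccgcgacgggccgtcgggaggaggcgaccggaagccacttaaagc
AHR: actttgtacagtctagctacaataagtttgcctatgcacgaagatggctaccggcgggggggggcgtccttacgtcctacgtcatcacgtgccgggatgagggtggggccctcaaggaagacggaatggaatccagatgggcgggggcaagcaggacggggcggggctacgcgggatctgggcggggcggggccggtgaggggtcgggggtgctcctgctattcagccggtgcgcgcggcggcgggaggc

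The AHRR window (chr5:321464-321713) lies within the span of the read-through gene PDCD6-AHRR and in no annotated exon. Its GCGTG begins 30 bases before the start site and is part of the longer element TNGCGTG. The CYP1A1 window (chr15:74725529-74725778, minus strand) holds 1 GCGTG, which begins 57 bases before the start, and its last 8 bases are in an exon of CYP1A1. In the printed TIPARP window (chr3:156674340-156674589), which overlaps an exon of the antisense gene TIPARP-AS1, the 2 cores lie on the opposite strand, 208 and 142 bases before the start. The other 2 TIPARP windows, before the start sites at chr3 positions 156674926 and 156676664, hold no GCGTG. A second AHRR window, before the start site at chr5 position 322610, holds 2 and the ARNT window none, and these 4 windows are not printed. The AHR window (chr7:17298402-17298651) lies within the wider AHR gene model, overlaps an exon of an antisense lncRNA and holds no GCGTG on either strand. Both strands were searched, and the longer element contains the shorter. A GCGTG is common at this length, since 32.2% of 35116 RefSeq windows hold at least 1 and 10.2% at least 2, whereas TNGCGTG is in 4.52%. The letters are a description of the windows and not evidence of a bound site.

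The receptor itself was among the more abundant members. AHR had 2203, 2165 and 2256 normalised counts in the 3 vehicle libraries and 2265, 2246 and 2142 at the low dose, where a normalised count is the expected read count divided by the library's DESeq2 size factor. At the medium dose the libraries had 2413, 2374 and 2552 normalised counts, and at the high dose 3566, 3613 and 3705. Vehicle and low dose libraries overlapped, all medium dose libraries lay above all vehicle libraries, and the high dose libraries stood well above the rest. The mean rose from 2208 ± 45.9 (SD, n = 3) to 3628 ± 70.8 (SD, n = 3) normalised counts at the high dose, a change of 0.72 on the log2 scale (SE 0.0405, adjusted p = 1.02e-68, DESeq2). At the medium dose the log2 fold change was 0.15 (SE 0.0416, adjusted p = 0.00218, DESeq2), 1.11-fold over vehicle and too small for the call, and 20 µg/mL gave 0.01 (95% interval -0.08 to 0.09, adjusted p = 0.970, DESeq2). Between the medium and high dose AHR differed by 0.57 on the log2 scale (adjusted p = 9.67e-44, DESeq2), just under the fold threshold, and without medium replicate 3 the difference was 0.60 and passed it. In bulk RNA, a change in the number of cells with a transcript and a change in its amount per cell cannot be told apart. Of the exon bases of AHR, 29.5% are shared on the same strand with an unnamed gene model (ENSG00000283321) that has no row in the table used here, and 6.11% lie opposite a lncRNA.

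ARNT, the dimer partner without which the AhR does not bind its element, had 1096, 1093 and 991 normalised counts in vehicle libraries and 1167, 1154 and 1065 at the high dose. The groups overlapped at every dose. Means were 1060 ± 60.1 (SD, n = 3) in vehicle, 1082 ± 27.9 at the low, 1048 ± 33.4 at the medium and 1129 ± 55.3 at the high dose. At 500 µg/mL its log2 fold change was 0.09 with a 95% interval of -0.03 to 0.21 (adjusted p = 0.244, DESeq2), so a change of the size seen for AHR lies outside the interval. At the medium and low dose it was -0.02 and 0.03, with DESeq2 adjusted p of 0.877 and 0.906, and its sign was not fixed, since single libraries left out turned it in both comparisons.

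**Figure D1:**
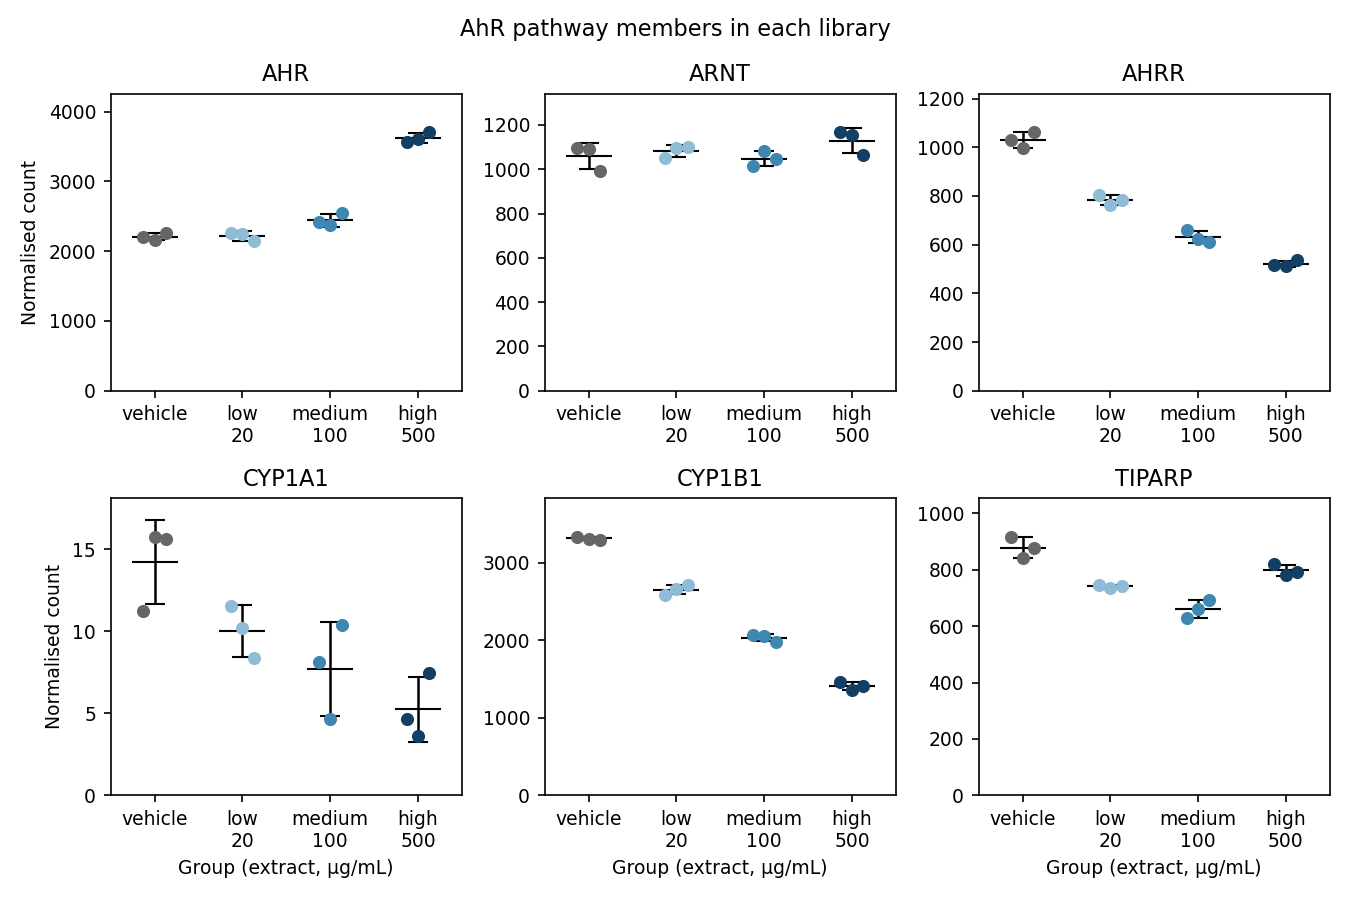
Normalised counts (vertical axis, from 0, a separate scale in each panel) of the 6 AhR pathway members in the 4 groups (horizontal axis, ACD in µg/mL); each point is a library, and bars show the mean ± SD of 3. AHR stands highest at the high dose, AHRR and CYP1B1 are lower in each group than in the group of the next lower dose without overlap, and TIPARP is lowest at the medium dose.

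AHRR, the repressor that shares its DNA element with the receptor, had 1029, 998 and 1062 normalised counts in vehicle libraries and 803, 763 and 782 at the low dose. The medium dose libraries had 661, 623 and 611, and the high dose libraries 515, 511 and 536. No library of any group overlapped with a library of another group. AHRR fell at the high dose by 0.98 on the log2 scale (SE 0.0678, adjusted p = 3.72e-46, DESeq2) and at the medium dose by 0.71 (SE 0.0662, adjusted p = 9.77e-25, DESeq2). The low dose mean, 783 ± 20.1 (SD, n = 3) against 1029 ± 31.8 in vehicle, gave -0.39 on the log2 scale (SE 0.0646, adjusted p = 2.81e-07, DESeq2), a 1.31-fold difference, too small for the call. The steps from low to medium and from medium to high were -0.31 and -0.28 on the log2 scale, with DESeq2 adjusted p of 7.54e-05 and 4.19e-04, both under the fold threshold. Of the exon bases of AHRR, 58.7% are shared on the same strand with the read-through gene PDCD6-AHRR, whose ID has no row in the table used here, so reads of either transcript may be counted under AHRR. Neither PDCD6 nor EXOC3, the genes next to AHRR, was called at any dose.

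CYP1B1, a CYP1 enzyme found mainly outside the liver that metabolises oestrogens and polycyclic aromatic compounds, had the highest counts of the 6 members in vehicle. Vehicle libraries had 3333, 3311 and 3299 normalised counts and low dose libraries 2588, 2659 and 2714. At the medium dose 2066, 2053 and 1984 were counted, and at the high dose 1468, 1363 and 1405. As for AHRR, the 4 groups were separated with no overlap, and the mean went from 3314 ± 17.4 (SD, n = 3) through 2654 ± 63.2 and 2034 ± 44.2 to 1412 ± 52.8. CYP1B1 fell at the high dose by 1.23 on the log2 scale (SE 0.0418, adjusted p = 2.88e-189, DESeq2) and at the medium dose by 0.70 (SE 0.0400, adjusted p = 4.34e-67, DESeq2). With 20 µg/mL the estimate was -0.32 on the log2 scale (SE 0.0390, adjusted p = 1.00e-13, DESeq2), a 1.25-fold difference, too small for the call. The further steps were -0.38 from low to medium (adjusted p = 3.53e-19, DESeq2) and -0.53 from medium to high (adjusted p = 1.48e-32, DESeq2), again under the fold threshold. Antisense genes overlap 12.9% of the exon bases of CYP1B1. The main one among them, CYP1B1-AS1, had 1 to 13 counts per library. Whether antisense reads were counted under CYP1B1 was not tested.

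CYP1A1, the classical readout of AhR activation in liver and epithelium, was close to absent. The vehicle libraries had 11, 18 and 15 counts, those of the low dose 12, 10 and 8, those of the medium dose 7, 5 and 11, and those of the high dose 4, 4 and 8. No high dose library reached the lowest vehicle library after normalisation, but the groups in between overlapped. The normalised mean was 14.2 ± 2.55 (SD, n = 3) in vehicle and 5.24 ± 2.01 at the high dose, a change of -1.44 on the log2 scale with a 95% interval of -2.63 to -0.25 (adjusted p = 0.0393, DESeq2). This call was lost in 10 of the 12 fits that left out a single library (adjusted p = 0.0528 to 0.164 from DESeq2) and held without medium replicate 2 and without high replicate 3. It was also lost in 4 of 10 other alternatives, while edgeR's quasi-likelihood test kept it with an adjusted p of 0.00334. At the medium and low dose the log2 fold changes were -0.89 (SE 0.573) and -0.50 (SE 0.555), and DESeq2 gave no adjusted p because the gene fell below its filter on mean count.

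TIPARP, also known as PARP7, had a profile of its own. Vehicle libraries had 917, 843 and 876 normalised counts, low dose libraries 746, 734 and 744, medium dose libraries 629, 662 and 693, and high dose libraries 820, 782 and 794. Every treated library lay below every vehicle library, and the lowest group was the medium dose and not the high dose. The log2 fold changes were -0.24 (SE 0.0658, adjusted p = 0.0105, DESeq2) for the low, -0.41 (SE 0.0666, adjusted p = 1.81e-08, DESeq2) for the medium and -0.14 (SE 0.0652, adjusted p = 0.0704, DESeq2) for the high dose. None passed the fold threshold. From the medium to the high dose TIPARP differed by 0.27 on the log2 scale in the upward direction (SE 0.0673, adjusted p = 2.78e-04, DESeq2), also below the fold threshold. For the high dose, edgeR's quasi-likelihood test gave an adjusted p of 0.0153 with the same size of change.

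**Figure D2:**
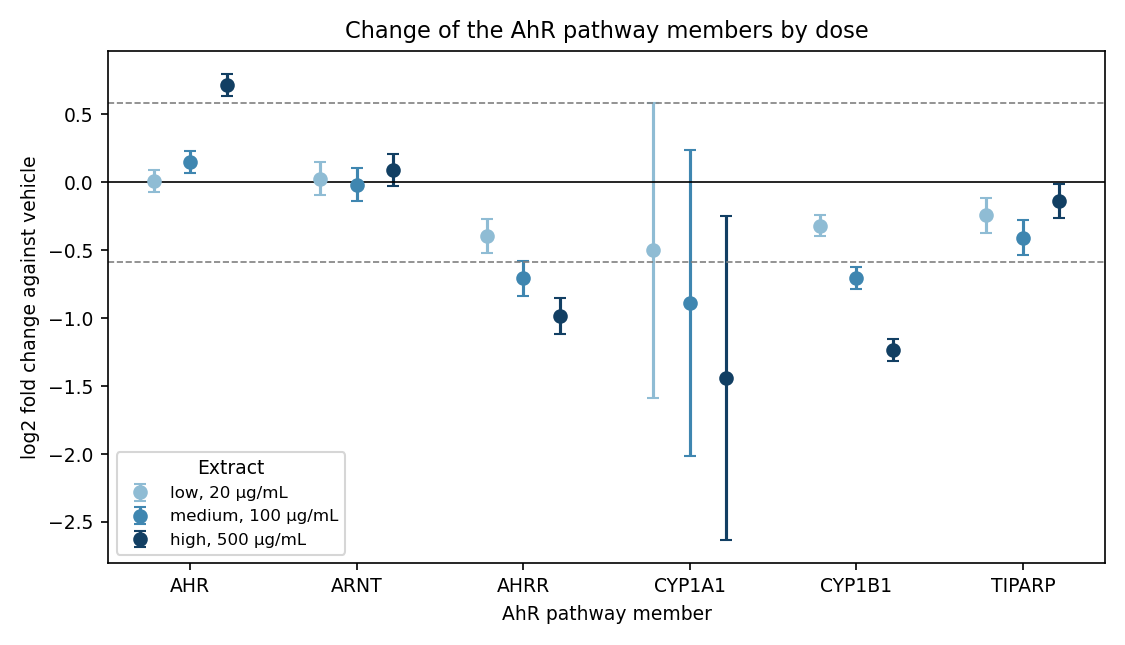
Log2 fold changes against vehicle (vertical axis) of the 6 members (horizontal axis) at the 3 doses, from DESeq2; points are estimates, bars their 95% intervals, and dashed lines the 1.5-fold threshold in both directions. AHR passes the upper line at the high dose, AHRR and CYP1B1 pass the lower line at the medium and high dose, and the intervals of CYP1A1 are the widest.

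Counted together, 4 of the 6 members were called at the high dose, 1 higher and 3 lower, where 18.2% of all 19453 genes tested were called, 8.66% higher and 9.57% lower. At the medium dose 2 of 6 were called, both lower, against 3.81% of 14082 genes tested, of which 1.48% were lower. At the low dose none was called by DESeq2 or by edgeR, where 0.118% of 9304 genes tested were. With the adjusted p alone, 3 of 6 members were lower at the low dose (AHRR, CYP1B1 and TIPARP), against 1.24% of the genes tested, and the unadjusted p was under 0.05 for the same count of 3. Taking both directions and the adjusted p alone, 4 of 6 members passed at the high, 4 at the medium and 3 at the low dose, beside 46.5%, 29.5% and 3.29% of the genes tested. These 3 comparisons share the vehicle libraries, so their results are not independent of each other. Between the medium and high dose no member was called by either tool, with 4 at an unadjusted p under 0.05 and 10.2% of genes called. There the adjusted p alone was under 0.05 for 4 members and for 40.9% of genes. Between the low and medium dose likewise none was called by either tool, with 4 at an unadjusted p under 0.05 and 1.94% of genes called, and the adjusted p alone was under 0.05 for 3 members and for 18.9% of genes. Over all 4 groups DESeq2's likelihood ratio test gave an adjusted p under 0.05 for AHR (1.56e-95), AHRR (1.48e-50), CYP1B1 (2.40e-207) and TIPARP (5.08e-08) but not for ARNT (0.487) or CYP1A1 (0.181), and 45.8% of all genes tested passed it.

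Non-overlapping libraries were common in the whole table. Of the 5 members with a mean of at least 10 normalised counts, 3 lay wholly below vehicle and 1 wholly above it at both the high and the medium dose, and 3 lay wholly below it at the low dose. Among the 15282 genes of that abundance, 34.4% lay wholly below and 35.6% wholly above vehicle at the high dose, 24.2% and 23.8% at the medium dose, and 10.3% and 11.3% at the low dose. The median log2 fold change of these 5 members was -0.14 at the high, -0.41 at the medium and -0.24 at the low dose, while that of the 15282 genes was 0.00 at each dose.

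Per kilobase of exon, the order of the members differed between vehicle and high dose. The exon lengths are those of GENCODE release 44, whereas the methods of the study name another annotation for the counting. In vehicle CYP1B1 was highest with 550 ± 2.89 normalised counts per kb (SD, n = 3), followed by AHR with 274 ± 5.71, TIPARP with 183 ± 7.75, ARNT with 164 ± 9.33, AHRR with 109 ± 3.36 and CYP1A1 with 4.23 ± 0.759. At the high dose AHR led with 451 ± 8.80 normalised counts per kb, ahead of CYP1B1 with 234 ± 8.76, ARNT with 175 ± 8.58, TIPARP with 166 ± 4.00, AHRR with 54.9 ± 1.42 and CYP1A1 with 1.56 ± 0.598. How far the neighbours ARNT and TIPARP were separated depended on the length used. Their vehicle levels became 225 and 228 per kb when the canonical transcript replaced the union of exons as the length. At the high dose their difference was about the size of the SD with the union of exons. With the canonical transcript it was larger there, at 240 per kb for ARNT and 207 for TIPARP. The other positions kept their order with either length.

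Setting each gene against AHR in the same library removes the scaling between libraries. The ratios were chosen after the values had been seen and are given as a description. There were 46.6 ± 0.482 AHRR counts per 100 AHR counts in vehicle (SD, n = 3), 35.3 ± 1.27 at the low, 25.9 ± 1.76 at the medium and 14.4 ± 0.183 at the high dose. CYP1B1 went from 150 ± 3.50 counts per 100 AHR counts in vehicle through 120 ± 6.34 and 83.3 ± 4.82 to 38.9 ± 1.93 at the high dose. TIPARP, whose own count was highest among the treated groups at the high dose, was lowest there relative to the receptor, with 39.8 ± 1.58, 33.5 ± 1.11, 27.0 ± 0.903 and 22.0 ± 0.842 counts per 100 AHR counts in the order of dose. The groups did not overlap for any of these 3 ratios. Part of each ratio is the higher AHR count itself, since ARNT, which passed no test of its own, went from 48.1 ± 3.61 to 31.1 ± 2.10 counts per 100 AHR counts.

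**Figure D3:**
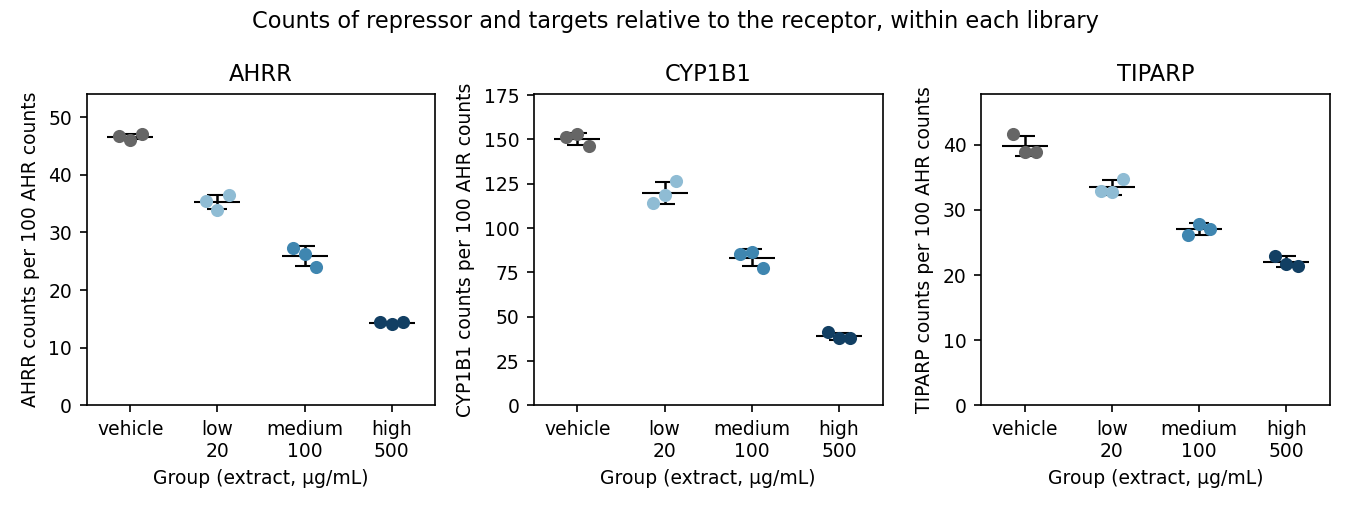
Counts of AHRR, CYP1B1 and TIPARP per 100 AHR counts of the same library (vertical axes, from 0) by group (horizontal axis, ACD in µg/mL); points are libraries, bars the mean ± SD of 3. In every panel each group lies below the group of the next lower dose, down to 14.4 for AHRR, 38.9 for CYP1B1 and 22.0 for TIPARP at the high dose.

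Of 70 further genes of the pathway and its surroundings, sorted by role, 66 had a count and 53 a mean of at least 10 normalised counts. At the high dose 14 were called by DESeq2, 9 higher and 5 lower. At the medium dose 3 of the 51 with an adjusted p were called, 2 of them higher, beside 3.81% of all genes tested. With 20 µg/mL none was called by DESeq2 or edgeR, beside 0.118% of all genes tested by DESeq2. There 13 had an unadjusted p under 0.05 by DESeq2, a count for which no share over all genes is given. The share called at the high dose, 14 of the 62 with an adjusted p, stands beside the 18.2% of all genes. By direction, 8.66% of all genes tested were called higher and 9.57% lower, and these shares stand beside each count of called genes below. The values below are for the called genes with a mean of at least 10 normalised counts.

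Of HSP90AA1, HSP90AB1 and PTGES3, chaperones of the cytosolic complex, none was called at any dose by DESeq2. At the high dose all 3 had an adjusted p under 0.05 with lower values, as had 22.6% of all genes tested, the furthest being HSP90AA1 at -0.32 on the log2 scale (adjusted p = 2.25e-24, DESeq2).

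Among 8 coactivators and corepressors, 1 was called higher and 1 lower at the high dose. NCOA3, a steroid receptor coactivator, rose from 1247 ± 42.3 to 2094 ± 70.4 normalised counts (SD, n = 3 each; log2 fold change 0.75, adjusted p = 6.06e-49, DESeq2). NRIP1, a corepressor of nuclear receptors that also binds the AhR, fell from 1725 ± 41.1 to 1137 ± 32.6 (log2 fold change -0.60, adjusted p = 2.95e-31, DESeq2).

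Of 15 other genes known as AhR targets, 12 had an adjusted p at the high dose, and 4 were called higher and 1 lower. NQO1, a quinone reductase that also answers to NFE2L2, rose from 3115 ± 48.3 to 4792 ± 45.7 normalised counts (SD, n = 3; log2 fold change 0.62, adjusted p = 6.59e-74, DESeq2). STC2, a secreted glycoprotein induced by cell stress, rose from 10429 ± 288 to 17574 ± 628 (log2 fold change 0.75, adjusted p = 8.32e-127, DESeq2). The EGF family ligand EREG rose from 43.6 ± 5.00 to 86.4 ± 9.96 (log2 fold change 0.99, adjusted p = 1.34e-04, DESeq2). IL24, a cytokine of the IL-10 family, rose from 14.3 ± 5.66 to 63.3 ± 10.9 (log2 fold change 2.15, adjusted p = 1.19e-07, DESeq2). The lower call was CYP2S1, a dioxin-inducible P450, which fell from 161 ± 15.8 to 93.5 ± 9.37 (log2 fold change -0.77, adjusted p = 1.79e-05, DESeq2), and it was called lower at the medium dose too (-0.64). The transporter ABCG2 differed by -0.57 at the high dose (adjusted p = 7.95e-13, DESeq2), just under the fold threshold. Upward and also under it, SERPINB2 differed by 0.56 (adjusted p = 6.03e-13, DESeq2) and NFE2L2 by 0.48 (adjusted p = 4.30e-22, DESeq2). By the adjusted p alone, 6 genes of this list were higher and 2 lower at the high dose. Of all genes tested there, 46.5% passed the adjusted p alone in either direction, and 22.6% passed it with lower values. The median log2 fold change of the 10 genes in this list with a mean of at least 10 normalised counts was 0.52 at the high, 0.01 at the medium and -0.16 at the low dose, beside 0.00 for all genes of that abundance at each dose. CYP1A2, the third CYP1 enzyme, had no count in any library. Antisense genes share 41.6% of the exon bases of IL24 and 19.4% of those of NQO1, and the sources used here do not say whether the counting used strand.

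Of 10 genes of ligand supply, 9 had an adjusted p at the high dose, and 2 were called higher and none lower. SLC7A5, the large neutral amino acid transporter that carries tryptophan and kynurenine, went from 3423 ± 82.5 normalised counts in vehicle to 4167 ± 220 at the low, 9521 ± 349 at the medium and 10953 ± 435 at the high dose (SD, n = 3). Its log2 fold change was 1.48 at the medium and 1.68 at the high dose, with a call at both, and 0.28 at the low dose (adjusted p = 2.30e-09, DESeq2), below the fold threshold. IL4I1, an amino acid oxidase that makes AhR ligands from tryptophan, rose from 27.3 ± 8.38 to 83.9 ± 6.52 at the high dose (log2 fold change 1.61, adjusted p = 1.94e-08, DESeq2). It shares 13.5% of its exon bases with NUP62 on the same strand. The kynurenine enzymes did not pass: TDO2 differed by 0.03 and IDO1 by -0.77 on the log2 scale, with DESeq2 adjusted p of 0.938 and 0.422, and IDO2 had no count.

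In the bHLH-PAS family, to which AHR, ARNT and AHRR belong, 12 of 13 listed relatives had an adjusted p at the high dose. There 2 were called higher and 2 lower. The clock factors NPAS2 and BMAL1 rose, NPAS2 from 158 ± 7.40 to 503 ± 18.0 normalised counts (SD, n = 3; log2 fold change 1.67, adjusted p = 1.72e-46, DESeq2) and BMAL1 from 150 ± 9.26 to 252 ± 4.82 (log2 fold change 0.75, adjusted p = 1.49e-07, DESeq2). NPAS2 was called higher at the medium dose as well, with a log2 fold change of 0.76. SIM1 fell from 173 ± 8.69 to 74.3 ± 15.2 (log2 fold change -1.21, adjusted p = 3.97e-12, DESeq2), and the other lower call, NPAS4, had 9 counts at most in a library. HIF1A, which shares ARNT as a partner, differed by 0.33 (adjusted p = 6.34e-35, DESeq2), not large enough for the call. EPAS1 differed by 0.45 (adjusted p = 1.46e-52, DESeq2), also under the fold threshold. By the adjusted p alone, 5 relatives were higher and 4 lower at the high dose, beside 46.5% of all genes tested in either direction and 22.6% lower.

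The remaining lists held few calls. Of 5 PARP relatives of TIPARP, 3 electron donors of the CYP1 enzymes and 5 listed neighbours of the members on the genome (4 with a count), none was called by DESeq2 at any dose. Of 7 genes of the other xenobiotic receptors, 5 had an adjusted p at the high dose, and only CYP3A5 was called. It was lower at the high dose, from 36.6 ± 3.31 to 21.9 ± 6.59 normalised counts (SD, n = 3; log2 fold change -0.76, adjusted p = 0.0387, DESeq2). That call was lost in 9 of 12 fits leaving out a single library, among them each vehicle and each low dose library, medium replicate 2 and high replicates 2 and 3, with adjusted p from 0.0526 to 0.197.

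**Figure D4:**
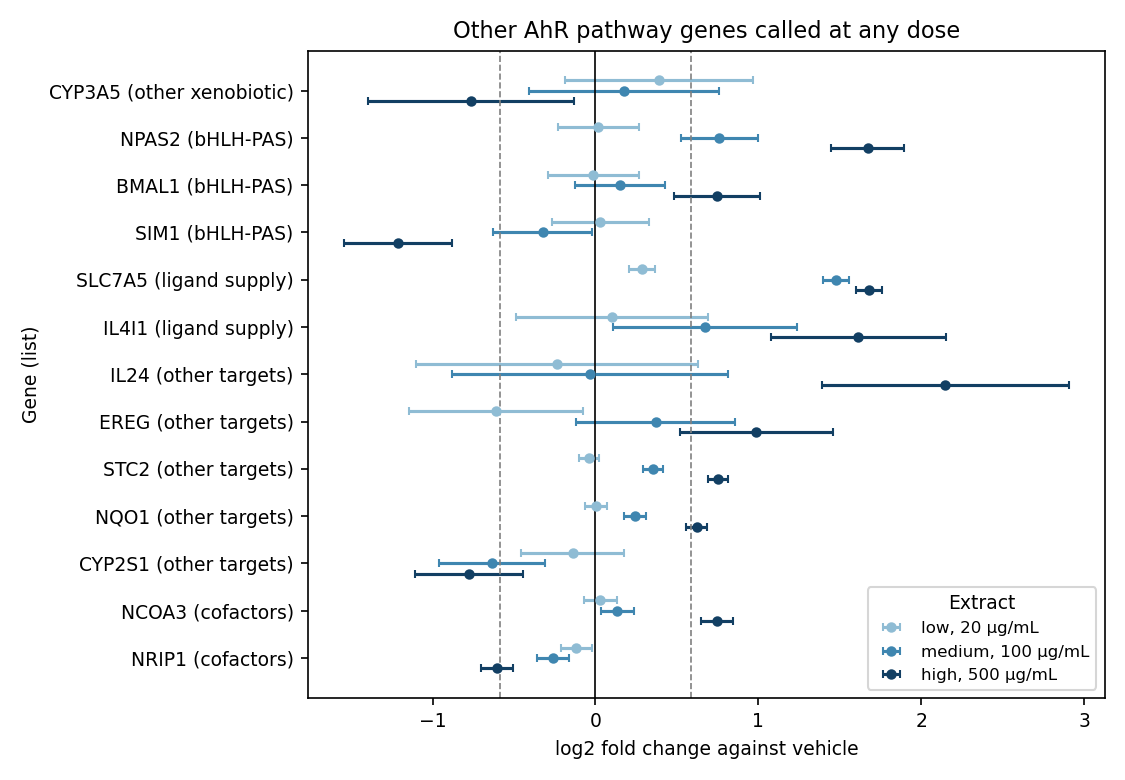
Log2 fold changes against vehicle (horizontal axis) with 95% intervals from DESeq2 of the 13 other pathway genes (vertical axis, with their list) that were called at any dose and had a mean of at least 10 normalised counts, at the low, medium and high dose; dashed lines mark the 1.5-fold threshold. SLC7A5, NPAS2 and CYP2S1 pass a line at the medium dose, and IL24 lies furthest right at the high dose with a log2 fold change of 2.15.

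The genes whose profiles over the 12 libraries lay nearest to each called member were found among 11264 genes with a mean of at least 100 normalised counts, by the root mean square difference of log2(normalised count + 1) after the vehicle mean had been subtracted. Nearest to AHR were BCL2L1 (0.0410), an inhibitor of apoptosis, NCOA3 (0.0421) and MTFR1 (0.0431). BCL2L1 had 2185 ± 31.4, 2181 ± 56.3, 2480 ± 14.9 and 3542 ± 93.1 normalised counts (SD, n = 3 each) in the order of dose, close to those of AHR itself. Nearest to CYP1B1 were PLPPR4 (0.0845), RRM2 (0.0920), a subunit of ribonucleotide reductase, and SMIM3 (0.0926). Nearest to AHRR were PIK3R3 (0.106), FEN1 (0.121), a nuclease of DNA replication, and PLXDC1 (0.123). The distances were larger for CYP1A1, with CCL2 (0.314), H2AC6 (0.322) and FBXO5 (0.334). Its own 4 to 18 counts per library add counting noise to these distances, so they do not measure likeness of profile alone.

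Other features of the libraries moved with dose. Library totals were 18863863 to 24200576 expected counts, and replicate libraries differed by more than sampling noise, so none was a copy of another. The 2 mitochondrial rRNA genes took 0.932 ± 0.0251% of counts in vehicle (SD, n = 3), 3.14 ± 0.164% at the low, 7.83 ± 0.199% at the medium and 5.93 ± 0.150% at the high dose, and without the mitochondrial genes the same numbers of members were called, 4, 2 and 0 from high to low dose. The astrocyte label was only partly met: SLC1A3, SOX9 and GJA1 were the 3 of 8 astrocyte markers with a vehicle mean of at least 10 normalised counts, GFAP had at most 6 counts in a library and AQP4 none. The summed level of the 8 was 6960 to 7161 normalised counts in vehicle and 5026 to 5145 at the high dose. All 6 mesenchymal markers were present, and their summed level was 199936 to 206353 normalised counts in vehicle and 136868 to 138506 at the high dose, although VIM within it differed upward by 0.29 on the log2 scale (adjusted p = 6.13e-23, DESeq2). In the neuron, microglia and epithelial lists 2 of 4 markers each reached a vehicle mean of 10, and the summed levels at the high dose, 1000 to 1067, 102 to 144 and 1797 to 1888 normalised counts, lay below the vehicle ranges of 1314 to 1377, 336 to 348 and 4861 to 5073. The neuron sum followed SNAP25 (log2 fold change -2.07), while SYT1 differed by 0.44 in the upward direction (adjusted p = 3.63e-10, DESeq2). The part of these shifts in the results for the members was not tested.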

How the data were processed

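The authors cultured SW1783 cells, prepared directional mRNA libraries and sequenced paired-end reads. Per the labels, FastQC 0.11.9, Trim Galore 0.6.5, STAR 2.7.3a and RSEM 1.3.3 were used with GRCh38 (the methods of the study name other versions of the trimmer and the aligner), and RSEM's expected counts, one value for each Ensembl gene and library, were deposited without normalisation. Whether strand was used in counting is not given in the sources used here. The methods of the study name a gene annotation other than GENCODE release 44. The exon lengths and overlaps given here may thus differ from those of the gene models counted. The treatment note of the labels describes a different herb, whereas the sample labels and the study name ACD, which is followed here.

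Expected counts were rounded to whole numbers and fitted in R 4.3.3 with DESeq2 1.42.0 as a single model of the 12 libraries without covariates, with two-sided Wald tests, a likelihood ratio test over the 4 groups, and Benjamini-Hochberg adjustment with independent filtering at 0.05. The filter left genes above a mean normalised count of 1.72 at the high, 18.3 at the medium and 263 at the low dose. DEGs had an adjusted p under 0.05 and a fold change over 1.5. The script was tested on simulated data. Alternatives were edgeR 4.0.16, other library sizes, filters and thresholds, the 2 compared groups alone, no mitochondrial genes, a replicate block and each library left out.

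Named genes were the 6 members, the called genes of the role lists with a mean of at least 10 normalised counts, and the 3 nearest profiles of each called member. The members and the lists were chosen with earlier results of these data known, so no count over them is independent evidence. The replicate number was used as a block only in an alternative fit: same-numbered libraries deviated together, with a correlation over 0.1 in all 3 pairs, between the low and medium dose alone. A gene of the role lists is not reported here, though it stays in the total of 70.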

Additional observations from a re-analysis of the deposited data

How the results depend on the processing

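The number of members called at the high dose was 4 in the main fit and 3 to 4 when single libraries were left out; CYP1A1 was the member lost, also under a replicate block (3 members, adjusted p = 0.0695 for CYP1A1 by DESeq2). Same-numbered libraries correlated from -0.118 to 0.221 in their deviations, with 5 of 18 pairs over 0.1, against 0 of 36 differently numbered pairs. All 3 low and medium dose pairs were over 0.1 (0.158, 0.124 and 0.193), and the block left 0 members called between these doses. The labels give replicate numbers but state no pairing. Deviations were taken from the mean of each group of 3, so same-numbered and differently numbered correlations are not independent. No other 2 groups had all 3 same-numbered pairs over 0.1, and all 9 same-numbered pairs with vehicle were below 0. The block changed no call of another member. With the adjusted p alone, 4 members passed at the medium dose in place of 2, and 3 at the low dose in place of 0. Between medium and high 4 members passed in place of 0, and between low and medium 3 in place of 0. Of the other pathway genes, 35 of the 62 with an adjusted p passed at the high dose in place of 14, beside 46.5% of all genes tested. With the Wald test against the fold threshold itself, 0 members passed at the medium dose, where 114 of 17064 genes tested did. At the high dose 7 other pathway genes passed that test, beside 1484 of 18856 genes tested. The other pathway genes whose high dose call was lost there were NQO1, EREG, CYP2S1, NRIP1, BMAL1, CYP3A5 and NPAS4. Leaving out single libraries gave 2 members at the medium dose, 0 at the low dose, 0 to 1 between medium and high, 0 between low and medium, 4 differing among the groups, and 12 to 14 other pathway genes. Estimates near 0 changed sign as single libraries were left out. AHR at the low dose ranged from -0.0086 to 0.031 on the log2 scale, below 0 without vehicle replicate 2 (-0.0073), low replicate 1 or low replicate 2 (-0.0023). ARNT ranged from -0.063 to 0.0064 at the medium dose, above 0 without vehicle replicate 1, vehicle replicate 2 (0.0063) or medium replicate 1 (0.0034), and from -0.018 without vehicle replicate 3 to 0.051 at the low dose. The cause was not tested. Counts of 18 or fewer limit CYP1A1, and the filter on mean count leaves it without an adjusted p at the medium and low dose.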
